A study of Mus musculus with 24 samples.

Results

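F13a1, F10, Plau, Plaur and Thbs1 encode proteins of blood clotting and of plasminogen activation, and their RNA was followed in BV2 cells and in the extracellular vesicles (EVs) these cells shed. The 5 genes were taken as a set by symbol, and all 5 are among the 13290 genes listed in the deposited count tables. The set was chosen by the loss of F13a1 in cells given lipopolysaccharide (LPS), so the values of these genes in LPS against control cells are a description and carry no test. BV2 is a mouse microglial line immortalised with oncogenes, kept in culture as 1 line, and EVs are membrane particles released into the medium.

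The groups were BV2 cells given LPS at 100 ng/mL, an outer membrane lipid of bacteria that signals through TLR4, cells given interleukin-10 (IL-10) at 50 ng/mL, cells given transforming growth factor-β (TGF-β) at 50 ng/mL, and control cells, with the EVs of each. Exposure lasted 72 h, and the labels name no vehicle for the controls and no allele or transgene in any group. Each of the 8 groups had 3 libraries, 24 in all, numbered here only to name them. The labels do not say whether the 3 libraries came from different cultures, and the p-values here reflect library-to-library spread that may be technical. Levels are CPM (counts scaled to a library's total), adjusted by TMM over the 12 libraries of a compartment, with SD over n = 3 unless stated, and adjusted p-values come from edgeR's quasi-likelihood test over all genes tested, with a threshold of 0.05.

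In clotting, factor X is cleaved to a protease that turns prothrombin into thrombin, and factor XIII, a transglutaminase, then cross-links the fibrin that thrombin makes. Fibrin is removed by plasmin, which is made from plasminogen by urokinase (Plau) at the cell surface, where the receptor uPAR (Plaur) holds it. Macrophages and microglia make several of these proteins themselves, factor XIII-A among them, and thrombospondin-1 (Thbs1) is a matrix protein that binds CD36 and CD47 and can activate latent TGF-β.

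Depth ranged from 3.02 to 17.98 M counts in EV libraries and from 26.14 to 42.13 M in cell libraries, so that a count of 0 allows up to 0.994 CPM in EVs and up to 0.115 CPM in cells (3 counts in the shallowest library, counting error only). Of the 10 microglia and macrophage markers 9 were listed (not P2ry12), and they summed to 3170 to 5480 CPM in cells, mostly Cd68 and Csf1r. Tmem119 averaged 11.2 ± 2 CPM in control cells and 128 ± 10.7 CPM in TGF-β cells. Cx3cr1, a defining microglial receptor, was near 0 in the other cell groups and averaged 7.94 ± 5.66 CPM in TGF-β cells, against 0.0801 ± 0.0838 CPM in control cells. Among markers of other cells that make clotting factors, 2 of 9 platelet markers were listed, with a sum of 80.9 to 213 CPM in cells that was nearly all the chemokine Pf4, and the only listed one of 8 hepatocyte markers, Cyp3a11, did not exceed 0.0951 CPM in cells. Of 8 endothelial markers 5 were listed, with a sum of 43.4 to 155 CPM in cells that was mostly Vwf, while Pecam1, Kdr and Emcn averaged at most 0.543, 0.453 and 0.0557 CPM in any cell group. The LPS EV libraries stood apart. Of the 116 listed genes with no count in any cell library, 113, 116 and 116 had counts in LPS EV libraries 1, 2 and 3, at a median of 8.84, 29.2 and 16.3 CPM, whereas between 6 and 20 of them did in each of the other EV libraries. Every listed gene had at least 240 counts over the 24 libraries. Genes silent in cells were therefore listed only through their EV counts, which fixed their detection in EVs. Their medians come from genes so selected and are no measured background. The collagen gene Col3a1, the only listed one of 6 fibroblast markers, was at 8.75 to 37.5 CPM in LPS EVs and at 0 in every other library. The endothelial list summed to 56.1 to 169 CPM in LPS EVs and to 0 to 91.6 CPM in the other EVs, and Pecam1, Kdr and Emcn averaged 15.8, 19.5 and 15.9 CPM in LPS EVs and had no count in the other EVs. Cyp3a11 was at 5.39 to 20.5 CPM in LPS EVs and at 0 in the other EVs. Without their LPS EV counts, Col3a1, Pecam1, Kdr, Emcn and Cyp3a11 would fall below 240 counts, so their listing required counts in LPS EVs. Markers not listed have no values to set beside them. In the other EVs 19.58% to 50% of the listed genes were at 0, against 0.489% to 4.42% in LPS EVs and 4.91% to 7.25% in cells.

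F13a1, the A subunit of factor XIII, was nearly absent in LPS cells and abundant in the other cell groups. Its levels were 1.55, 0.534 and 0.871 CPM in LPS cells, 1970, 1550 and 1750 CPM in IL-10 cells, 439, 310 and 317 CPM in TGF-β cells, and 1190, 1330 and 1220 CPM in control cells. Every LPS library lay far below every other library, every TGF-β library lay between LPS and control, and every IL-10 library lay above every control library. The raw counts behind the LPS levels were 72, 16 and 30, against 32478, 43611 and 36482 in the control libraries. The fitted difference of LPS from control cells was -10.20 on the log2 scale (a 1180-fold lower level), and leaving out single libraries kept it between -10.77 and -9.96. In bulk RNA, fewer cells with the transcript and less of it per cell cannot be told apart.

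IL-10 raised F13a1 1.41-fold (1760 ± 209 CPM in IL-10 cells, against 1250 ± 76.8 CPM in control cells; log2 0.49, SE 0.08, edgeR adjusted p = 0.000292). With all 12 cell libraries in the fit the estimate was the same and the edgeR adjusted p was 0.0844, so the call was lost. TGF-β lowered F13a1 3.51-fold (355 ± 72.6 CPM in TGF-β cells; log2 -1.81, SE 0.14, edgeR adjusted p = 1.85e-05). Set directly against each other, TGF-β cells had 4.94-fold less F13a1 than IL-10 cells (log2 -2.30, SE 0.19, edgeR adjusted p = 3.61e-06). Of F13a1's 6739 exon bases in GENCODE M21, 74 overlap an antisense gene, Gm30489, and no source says that counting used strand, so reads there cannot be assigned with certainty.

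**Figure D1:**
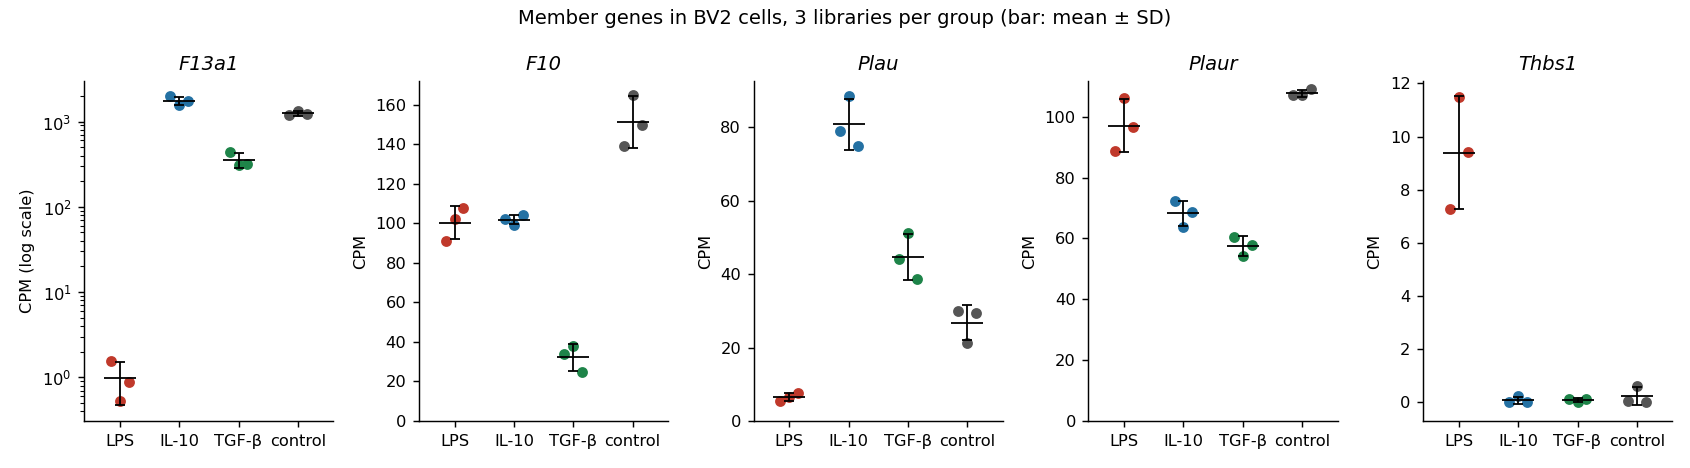
CPM of the 5 genes in LPS, IL-10, TGF-β and control BV2 cells. Points are libraries, bars the mean ± SD of 3, and F13a1 is on a log axis. F13a1 sits near 1 CPM in LPS cells and above 300 CPM in every other cell library, Plau is highest in IL-10 cells, and Thbs1 is above 1 CPM in LPS cells and below it elsewhere.

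Promoter windows, from 250 bases before to 50 bases after a transcript start, were available from RefSeq (GRCm38.p6) for 3 of the 5 genes (not Plau or Thbs1), in 4 windows. The windows of F13a1, the gene by which the set was chosen, and of Plaur, the urokinase receptor, are shown, 5′ to 3′, because each holds a searched motif. Capitals mark a PU.1 motif (GAGGAAGT) in the first and an AP-1 motif (TGACTCA) in the second.
F13a1, chr13:37049164-37049463, minus strand: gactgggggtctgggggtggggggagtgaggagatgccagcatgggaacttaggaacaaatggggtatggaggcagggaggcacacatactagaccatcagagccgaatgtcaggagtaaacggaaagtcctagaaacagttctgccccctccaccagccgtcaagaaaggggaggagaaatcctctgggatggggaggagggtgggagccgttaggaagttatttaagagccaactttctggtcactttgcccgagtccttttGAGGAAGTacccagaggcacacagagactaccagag
Plaur, chr7:24462233-24462532, plus strand: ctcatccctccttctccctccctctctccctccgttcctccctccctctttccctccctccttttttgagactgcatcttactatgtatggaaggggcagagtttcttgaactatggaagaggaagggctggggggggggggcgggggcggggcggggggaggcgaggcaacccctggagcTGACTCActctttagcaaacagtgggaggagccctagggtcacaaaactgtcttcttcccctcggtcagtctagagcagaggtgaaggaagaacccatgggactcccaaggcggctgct
The PU.1 letters begin 15 bases after the F13a1 start, and 3.2% of all 32851 windows hold them on either strand. The AP-1 letters begin 69 bases before the Plaur start and occur in 5.2% of windows. Plaur's window also holds the Sp1 letters GGGCGG 3 times, beginning 111, 105 and 100 bases before the start, the last 2 sharing a base. These letters occur at least once in 35.7% of windows. No searched motif was found in the upstream F13a1 window (chr13:37050195-37050494, minus strand) or in that of F10 (chr8:13037058-13037357, plus strand). The search also covered NF-kB by name (8.46% of windows), STAT as TTCNNNGAA (8.3%) and SMAD as GTCTAGAC (0.213%), on both strands. A match describes letters, not a bound site.

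F10, which encodes factor X, was lower than control after all 3 treatments and lowest after TGF-β. Levels were 91.2, 102 and 108 CPM in LPS cells, 102, 99.4 and 104 CPM in IL-10 cells, 34, 37.9 and 24.8 CPM in TGF-β cells, and 139, 165 and 150 CPM in control cells. All treated libraries lay below all control libraries, the LPS and IL-10 libraries overlapped, and the TGF-β libraries lay below the rest. TGF-β lowered F10 4.7-fold (32.2 ± 6.71 CPM in TGF-β cells, against 151 ± 13.3 CPM in control cells; log2 -2.23, SE 0.15, edgeR adjusted p = 3.4e-06). IL-10 lowered it 1.48-fold (log2 -0.57, SE 0.07, edgeR adjusted p = 8.7e-06), and TGF-β cells had 3.17-fold less than IL-10 cells (log2 -1.67, SE 0.12, edgeR adjusted p = 6.57e-09). The LPS difference, described only, was -0.59 on the log2 scale.

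F7, which encodes factor VII, the protease that with tissue factor activates factor X, is the neighbour of F10 in the gene order of chromosome 8. It averaged 84 ± 12.8 CPM in TGF-β cells, against 221 ± 9.54 CPM in control cells, and fell 2.64-fold (edgeR adjusted p = 6.51e-07). After IL-10 its level was 208 ± 11.4 CPM and the difference from control did not pass (log2 -0.09, SE 0.06, edgeR adjusted p = 0.343), while F10 fell.

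Plau, the plasminogen activator urokinase, was higher after both cytokines and lower in LPS cells. It was at 5.48, 6.54 and 7.49 CPM in LPS cells, 79, 88.5 and 75 CPM in IL-10 cells, 44.1, 51.2 and 38.7 CPM in TGF-β cells, and 29.9, 21.2 and 29.3 CPM in control cells. The order was IL-10, TGF-β, control, LPS, and no neighbouring groups in it overlapped. IL-10 raised Plau 3.02-fold (80.8 ± 6.96 CPM in IL-10 cells, against 26.8 ± 4.82 CPM in control cells; log2 1.59, SE 0.12, edgeR adjusted p = 6e-08) and TGF-β 1.67-fold (44.7 ± 6.26 CPM in TGF-β cells; log2 0.74, SE 0.14, edgeR adjusted p = 0.00214). TGF-β cells had 1.81-fold less Plau than IL-10 cells (log2 -0.86, SE 0.14, edgeR adjusted p = 6.29e-05). Against control cells, LPS cells were 4.13-fold lower (log2 -2.05, described only).

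Plaur, the receptor that holds urokinase at the cell surface, went the other way from Plau under both cytokines. Levels were 88.6, 106 and 96.6 CPM in LPS cells, 72.2, 63.8 and 68.6 CPM in IL-10 cells, 60.6, 54.2 and 57.7 CPM in TGF-β cells, and 107, 107 and 109 CPM in control cells. The LPS libraries lay just under the control libraries, and both cytokine groups lay below LPS. IL-10 lowered Plaur 1.58-fold (68.2 ± 4.23 CPM in IL-10 cells, against 108 ± 1.03 CPM in control cells; log2 -0.66, SE 0.07, edgeR adjusted p = 1.37e-06) and TGF-β 1.87-fold (57.5 ± 3.22 CPM in TGF-β cells; log2 -0.91, SE 0.08, edgeR adjusted p = 9.9e-07). TGF-β and IL-10 cells differed by -0.25 on the log2 scale (SE 0.08, edgeR adjusted p = 0.0219). That call was lost without IL-10 library 1, IL-10 library 3 or TGF-β library 2 (edgeR adjusted p = 0.0862, 0.0614 and 0.0765).

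With Plau up and Plaur down, their ratio moved further than either gene. Each divided by its exon length, the ratio of Plau to Plaur was 0.0684, 0.0682 and 0.0857 in LPS cells, 1.21, 1.53 and 1.21 in IL-10 cells, 0.805, 1.04 and 0.742 in TGF-β cells, and 0.308, 0.22 and 0.297 in control cells. Groups did not overlap, and in IL-10 cells alone urokinase RNA exceeded receptor RNA per length in all 3 libraries. An exact two-sided permutation test gave p = 0.1 for IL-10 (1.32 ± 0.188 in IL-10 cells, against 0.275 ± 0.0481 in control cells) and p = 0.1 for TGF-β (0.864 ± 0.159 in TGF-β cells), the smallest value that 3 against 3 libraries allow.

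**Figure D2:**
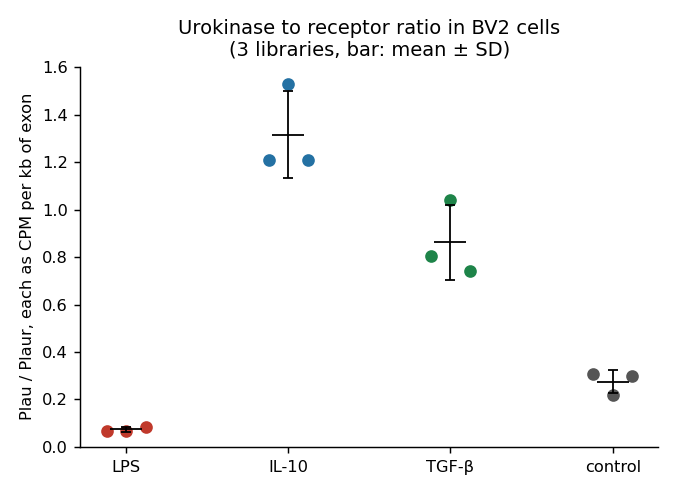
Ratio of Plau to Plaur, each in CPM per kb of exon, in LPS, IL-10, TGF-β and control BV2 cells. Points are libraries and bars the mean ± SD of 3. The ratio is lowest in LPS cells (0.0741 ± 0.0101), highest in IL-10 cells (1.32 ± 0.188) and intermediate in TGF-β and control cells.

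Thbs1, which encodes thrombospondin-1, was detected at more than traces only in LPS cells among the cell groups. Its raw counts were 337, 345 and 324 in LPS cells, 0, 7 and 0 in IL-10 cells, 4, 0 and 4 in TGF-β cells, and 1, 20 and 0 in control cells. The LPS libraries, at 7.27, 11.5 and 9.41 CPM, lay above all others. Without its LPS cell counts Thbs1 would fall below 240 counts, the lowest total of any listed gene, so its listing required them. The fitted LPS difference of 5.32 on the log2 scale (39.9-fold, described only) rests on control library 2, which held 20 of the 21 control counts, and was 8.79 without it. Counts after IL-10 and TGF-β were too low to be tested against control, and with 7 counts in IL-10 cells and 8 in TGF-β cells no fold is given between them. An antisense gene, Gm29233, overlaps 208 of Thbs1's 6073 exon bases, so reads there are uncertain too.

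**Figure D3:**
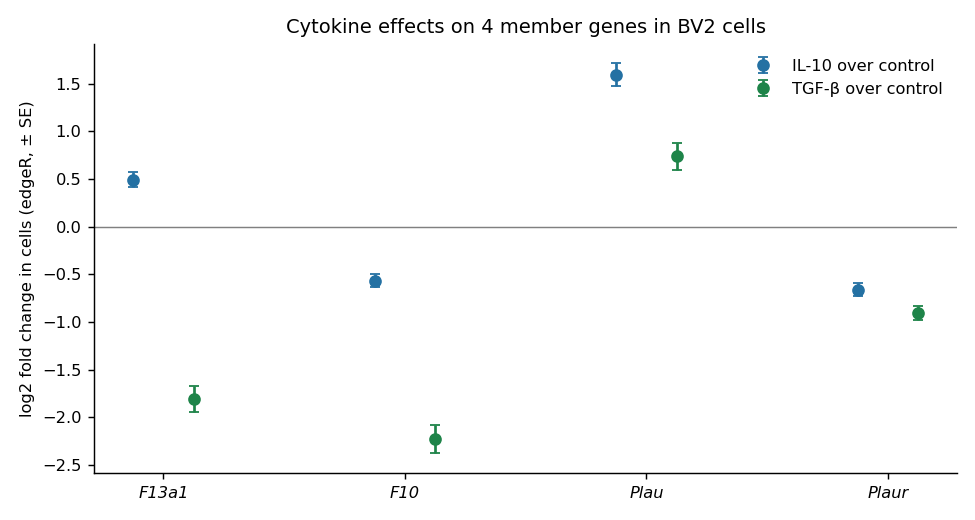
Log2 fold change from edgeR, ± an SE derived from its F statistic, of F13a1, F10, Plau and Plaur in IL-10 and TGF-β cells over the same control cells. F13a1 is above 0 with IL-10 and below it with TGF-β, Plau is above 0 with both, and F10 and Plaur are below 0 with both. Thbs1 had too few counts to be tested.

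All 4 genes with enough counts passed the test after each cytokine. After IL-10 these were F13a1 and Plau higher and F10 and Plaur lower, where 23.2% of all genes tested passed (12.3% higher, 10.9% lower). After TGF-β, Plau was higher and the other 3 lower, where 29.9% passed (14.5% higher, 15.4% lower). Between TGF-β and IL-10 cells the same 4 genes were lower in TGF-β cells, where 38.3% of genes passed (18.3% higher, 20% lower). Thbs1 also entered that fit of the 12 cell libraries, but only through its LPS counts, and is not counted. In LPS against control cells 56.1% of all genes passed (28.6% higher, 27.5% lower), a background from which nothing is read here because the set was chosen in that contrast. The 2 cytokine comparisons share their control libraries.

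Per kb of exon, F13a1 was the highest of the 5 genes in control cells (185 CPM per kb), ahead of F10 (55.3), Plaur (41.2), Plau (11.3) and Thbs1 (0.0356). The order was different in LPS cells, where Plaur (37.1 CPM per kb) and F10 (36.8) led, Plau had 2.75 and Thbs1 1.55, and F13a1 was last (0.146). In IL-10 cells F13a1 reached 261 CPM per kb, with F10 at 37.4, Plau at 34.2 and Plaur at 26.1. In TGF-β cells F13a1 was at 52.7, Plaur at 22, Plau at 18.9 and F10 at 11.8.

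The genes whose level over the 4 cell groups most resembled each member were found by the root mean square (RMS) difference of group means, as log2 of CPM plus 0.5 centred on the gene's own average, among 10596 genes. For F13a1 the nearest was Arg1, the arginase of alternatively activated macrophages, at an RMS of 0.599. Arg1 averaged 0.213 CPM in LPS cells, 288 CPM in IL-10 cells, 67.1 CPM in TGF-β cells and 268 CPM in control cells. Its IL-10 libraries (308, 188 and 369 CPM) overlapped its control libraries (227, 343 and 234 CPM), whereas those of F13a1 did not. The low LPS level, by which the set was chosen, weighs in this likeness. The next 4, Sphk1, Gpr183, Agt and C4b, were much less like F13a1 (RMS 2.19 to 2.37). All 4 were lowest in LPS cells, and of them only C4b had the IL-10, control, TGF-β order of F13a1, at 864 CPM in IL-10 cells, 43.6 CPM in TGF-β cells and 142 CPM in control cells. C4b has a near-identical copy, C4a, so its counts are uncertain. Nearest to F10 were Soat2, Mixl1 and Gbe1 (0.0462 to 0.125), to Plau Col4a1 (0.246) and Pla2g15 (0.301), to Plaur H2afy2, Bmper and Scrib (0.0357 to 0.0475), and to Thbs1 Astn2, Bcl2a1d and Adh7 (0.0567 to 0.143). Thbs1 and its nearest genes averaged at most 0.237 CPM outside LPS cells, below the added 0.5. Their likeness therefore rests on the LPS level, and their RMS cannot be set beside that of Arg1.

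**Figure D4:**
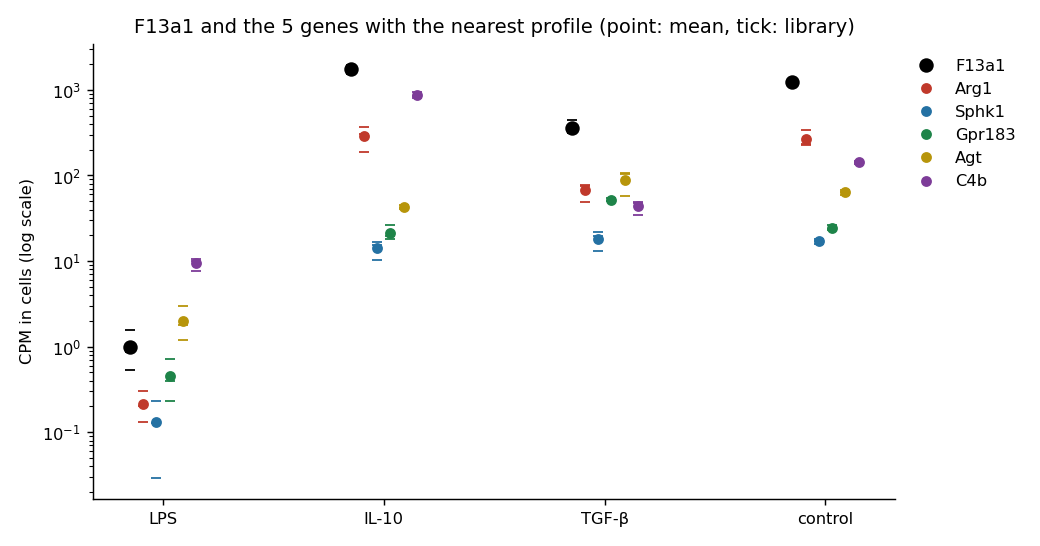
CPM of F13a1 and its 5 nearest genes in LPS, IL-10, TGF-β and control BV2 cells, on a log axis. Points are means of 3 libraries and ticks are libraries, and a library at 0 has no tick. Arg1 is low in LPS cells (0.213 CPM) and intermediate in TGF-β cells, as F13a1 is. Its IL-10 libraries (mean 288 CPM) overlap its control libraries, which those of F13a1 do not. By mean, Sphk1, Gpr183 and Agt are highest in TGF-β cells.

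Of 69 other genes of clotting, anticoagulation, plasminogen activation, thrombospondin binding and transglutamination, 36 were listed. After TGF-β 6 rose and 11 fell of 30 tested (median log2 -0.16, against 0.006 over all genes), where 14.5% of all genes rose and 15.4% fell. After IL-10 10 rose and 5 fell of 30 (median -0.005, against -0.004 over all genes), where 12.3% rose and 10.9% fell. In LPS cells 6 were higher and 13 lower of 30 (median -0.16, against 0.007 over all genes), where 28.6% were higher and 27.5% lower. None of the 4 protease-activated receptors was listed.

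Among the clotting factors, Vwf, which encodes von Willebrand factor, averaged 41.9 ± 2.98 CPM in LPS cells, 51.5 ± 3.2 CPM in IL-10 cells, 133 ± 13.3 CPM in TGF-β cells and 132 ± 10.5 CPM in control cells. The fall after IL-10 was 2.56-fold (edgeR adjusted p = 3.64e-10), while F13a1 rose. Of 8 clotting genes tested after TGF-β, where 15.4% of all genes fell and 14.5% rose, 3 fell (F10, F7 and F13a1) and 2 rose, F9 (4.62-fold, edgeR adjusted p = 0.000471) and Ggcx (1.52-fold, edgeR adjusted p = 0.00107), both named after their values were seen. F9 encodes factor IX and Ggcx the carboxylase that vitamin K-dependent factors such as factors VII, IX and X need. F9 was at a low level, 3.08 ± 0.869 CPM in TGF-β cells, against 0.664 ± 0.204 CPM in control cells.

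Among receptors for plasminogen and urokinase, 5 of 9 fell after TGF-β, against 15.4% of all genes, including Plaur, the annexin Anxa2 that binds plasminogen (1.64-fold, edgeR adjusted p = 2.23e-06) and the integrin chain Itgb2 (1.64-fold, edgeR adjusted p = 3.39e-06). Plgrkt, the plasminogen receptor, was the only 1 that rose (1.59-fold, edgeR adjusted p = 9.91e-05), and was named after its value was seen. After IL-10 3 of 9 rose and 4 fell, against 12.3% and 10.9% of all genes, with Itgam 1.36-fold higher (edgeR adjusted p = 0.000224) and the clearance receptor Lrp1 1.29-fold lower (edgeR adjusted p = 0.000388).

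Of 8 thrombospondins and receptors tested between the cytokines, 2 were higher and 3 lower in TGF-β than in IL-10 cells and 3 did not pass, where 18.3% of all genes were higher and 20% lower. Thbs1, among those that did not pass, entered that fit only through its LPS counts. Cd36 had 3.74 ± 0.603 CPM in TGF-β cells, against 22 ± 3.18 CPM in IL-10 cells, a 5.84-fold difference (edgeR adjusted p = 8.79e-11), and Cd47, the "do not eat me" signal, was 2.72-fold lower in TGF-β than in IL-10 cells (edgeR adjusted p = 4.31e-12). Itgav, an integrin chain that takes part in activating latent TGF-β, rose in both, 5.99-fold after TGF-β (256 ± 37 CPM in TGF-β cells, against 42.8 ± 2.59 CPM in control cells, edgeR adjusted p = 4.71e-09) and 1.59-fold after IL-10 (edgeR adjusted p = 1.98e-05).

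F13a1's relatives among the transglutaminases were expressed at low levels. Tgm1 had 0.271 ± 0.231 CPM in TGF-β cells and 8.58 ± 2.08 CPM in IL-10 cells, against 2.21 ± 0.553 CPM in control cells, and like F13a1 it rose after IL-10 (3.86-fold, edgeR adjusted p = 7.94e-06) and fell after TGF-β (7.67-fold, edgeR adjusted p = 0.00138). Tgm2 rose 3.48-fold after TGF-β (edgeR adjusted p = 0.00967). The anticoagulant protein C receptor Procr rose 1.45-fold after IL-10 (edgeR adjusted p = 2.63e-05) and fell 1.27-fold after TGF-β (edgeR adjusted p = 0.0061). Procr averaged 229 ± 19.4 CPM in LPS cells, against 90.7 ± 3.9 CPM in control cells.

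In EVs the same genes were detected unevenly. A count was found in 11 of 12 EV libraries for F13a1, 10 for F10, 10 for Plaur, 8 for Plau and 2 for Thbs1. F13a1 was at 2.59, 179 and 109 CPM in LPS EVs, 135, 104 and 592 CPM in IL-10 EVs, 0, 258 and 61.5 CPM in TGF-β EVs, and 868, 207 and 426 CPM in control EVs. All LPS EV libraries lay below all control EV libraries, and the cytokine groups overlapped the controls. LPS EV library 1, at 2.59 CPM, lay below the 8.84 CPM median of cell-silent genes in that library, whereas libraries 2 and 3 lay above theirs (29.2 and 16.3 CPM).

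No member tested passed in any EV comparison with control, and Thbs1 in all 3 and Plau after IL-10 had too few counts to be tested. The F13a1 difference was -2.43 on the log2 scale for LPS (SE 1.21, edgeR adjusted p = 0.353), -0.91 for IL-10 (SE 0.86, edgeR adjusted p = 1) and -2.28 for TGF-β (SE 1.69, edgeR adjusted p = 0.999), so that the standard errors leave changes of several-fold undetectable. In LPS EVs 14.2% of all genes tested passed (13.9% higher, 0.237% lower). After IL-10 and after TGF-β 0% of genes passed in EVs by edgeR, 177 and 360 had an unadjusted p under 0.05, and DESeq2 called 46 and 78.

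**Figure D5:**
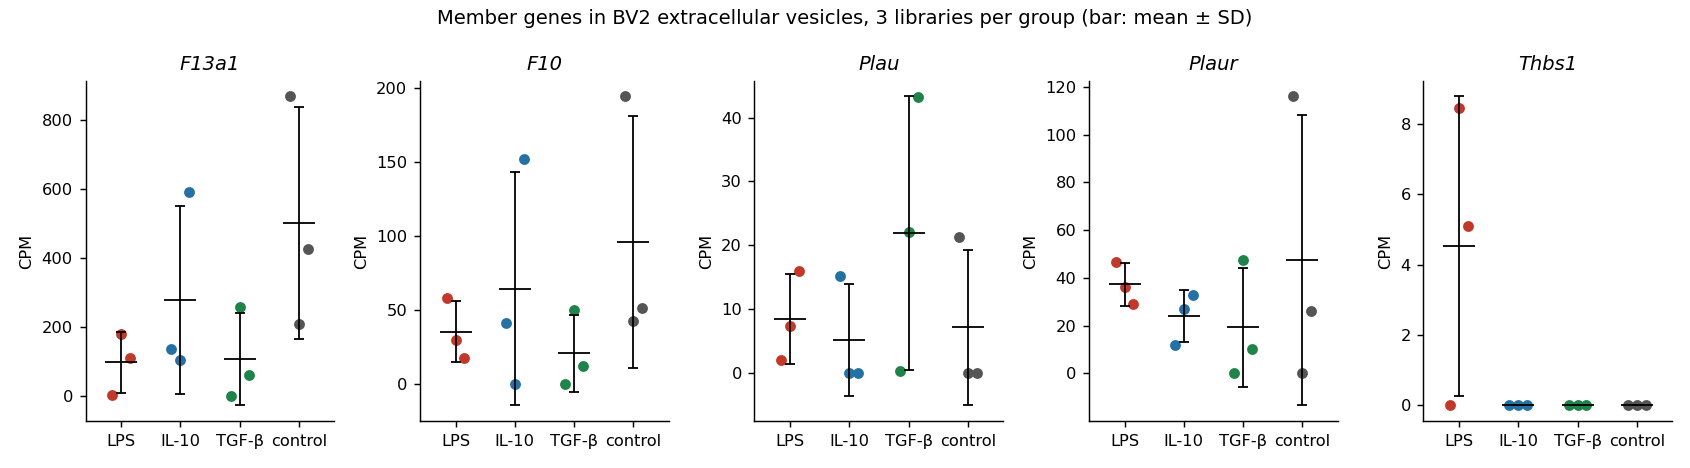
CPM of the 5 genes in EVs of LPS, IL-10, TGF-β and control BV2 cells. Points are libraries and bars the mean ± SD of 3, which reach below 0 where 1 library is high. Control library 1 is the highest control value of F13a1, F10, Plau and Plaur, and Thbs1 has counts in LPS EVs alone.

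F10 was at 58, 30 and 17.9 CPM in LPS EVs, 41, 0 and 152 CPM in IL-10 EVs, 0, 50.2 and 12.4 CPM in TGF-β EVs, and 194, 42.5 and 51.3 CPM in control EVs. Plaur was at 46.8, 36.3 and 29 CPM in LPS EVs, 12, 27.2 and 33 CPM in IL-10 EVs, 0, 47.5 and 10.4 CPM in TGF-β EVs, and 116, 0 and 26.3 CPM in control EVs. F10 in LPS EV libraries 2 and 3 lay close to their medians of cell-silent genes (29.2 and 16.3 CPM). Each treated group overlapped the control group for both genes, and control library 1, the deepest EV library at 17.98 M counts, held the highest control value of each. That library also resembled cells most, with r = 0.846 against the mean control cell profile, where the other control EV libraries had 0.733 and 0.712 (across genes, which are not independent replicates). Its part in these values was not tested beyond leaving it out.

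Plau was at 1.94, 7.25 and 15.9 CPM in LPS EVs, 15.2, 0 and 0 CPM in IL-10 EVs, 0.248, 22.1 and 43.2 CPM in TGF-β EVs, and 21.2, 0 and 0 CPM in control EVs. It was thus found in 1 library of 3 in IL-10 and control EVs. In LPS EVs each library lay below its own median of cell-silent genes, a median taken from genes listed only through EV counts. Thbs1 had 0, 35 and 39 counts in LPS EVs and none in the other 9 EV libraries, at levels (8.46 and 5.1 CPM in libraries 2 and 3) that were also below those medians. The Plau difference in LPS EVs was 0.22 on the log2 scale (SE 2.25, edgeR adjusted p = 0.988) and became 8.61 (edgeR adjusted p = 0.0386) without control library 1, the only control library with a Plau count.

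Of the other pathway genes, 8 of 29 tested were called higher in LPS EVs and 1 lower, where 13.9% of all genes were called higher and 0.237% lower, and 0 of 21 were called in either cytokine's EVs. The 8 were F2, F5, A2m, Serpine2, Thbs3, Cd36, Tgm2 and Tgm5. None of them had a count in any control EV library, and they averaged 8.7 to 34.2 CPM in LPS EVs, beside the medians of 8.84 to 29.2 CPM at which cell-silent genes stood there. Without their LPS EV counts, F2, F5, A2m, Serpine2 and Tgm5 would fall below 240 counts, the lowest total of any listed gene. Their listing thus required counts in LPS EVs, and the share of all genes called higher is subject to the same selection. What part this selection and the counts of cell-silent genes have in these 8 calls was not tested. The gene called lower was Anxa2, at 196 ± 15.5 CPM in LPS EVs, against 488 ± 42.4 CPM in control EVs (log2 -1.30, edgeR adjusted p = 0.0454). All 9 calls were lost with a mean of at least 50 counts, with all 12 EV libraries in the fit, and without any 1 of the LPS EV libraries, since edgeR then called 0 genes in LPS EVs.

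Set against the cells that shed them, and scaled to library totals, EVs of LPS cells held F13a1 at 2.75, 245 and 133 CPM, against 1.06 ± 0.589 CPM in LPS cells. The ratio of the means was 120, with libraries 2 and 3 high and library 1 near the cell level, and no test is given because the low cell level chose the set. In the other groups the mean F13a1 level in EVs over that in cells was 0.175 for IL-10, 0.263 for TGF-β and 0.43 for control. Of the 5 genes nearest to F13a1 in cells, which were found partly by their low LPS level, Arg1 had 56.1, 54.4 and 27.2 CPM in LPS EVs, against 0.302, 0.133 and 0.203 CPM in LPS cells (each scaled within its compartment), and all 3 LPS EV values lay above the medians of cell-silent genes in their libraries. The other 4 did not: Sphk1 and Gpr183 lay below those medians in all 3 LPS EV libraries, and Agt and C4b in 2 of 3. Those medians come from genes listed only through EV counts, so they are no threshold.

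None of F13a1, F10, Plau and Plaur passed the test of EVs against cells in control, IL-10 or TGF-β cultures (Thbs1 was too low to be tested), where 10.7% (1.23% higher, 9.43% lower), 17.7% (7.49% higher, 10.2% lower) and 18.4% (9.42% higher, 8.99% lower) of all genes passed. F13a1 came nearest in IL-10 cultures (log2 -2.61, SE 0.73, edgeR adjusted p = 0.0664), where DESeq2 gave an adjusted p of 0.00353 and edgeR gave 0.00154 without IL-10 EV library 3. Without control EV library 1, F13a1 (log2 -2.00, edgeR adjusted p = 0.0204), F10 (log2 -1.72, edgeR adjusted p = 0.00499) and Plau (edgeR adjusted p = 0.00495) were called lower in control EVs than in control cells. Plaur in IL-10 cultures was called lower in EVs by DESeq2 (adjusted p = 0.0126) and without IL-10 EV library 1 or 3 (edgeR adjusted p = 0.038 and 0.033), against 0.097 with all libraries. Plau in IL-10 cultures was called lower without IL-10 EV library 1 (edgeR adjusted p = 0.00773), which alone of the 3 held a Plau count.

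Whether a cytokine's effect differed between EVs and cells was tested as an interaction. None of the 4 members tested, all but Thbs1, passed for IL-10, where 0.285% of all genes passed, or for TGF-β, where 0.31% did, with edgeR adjusted p-values of 0.772 to 1 for these 4. The cytokine changes of F13a1, F10, Plau and Plaur in cells thus passed no test in EVs, and were not shown to be absent there.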

How the data were processed

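Total RNA of BV2 cells and of their EVs was sequenced after library preparation with the SMART-Seq v4 and Nextera XT kits, per the labels' protocols. The deposited tables hold raw gene counts made by the authors, in 6 tables of 3 treated and 3 control libraries. The submitters' processing notes name DESeq2. Genome build, aligner, counter and strand setting: not given in the sources used here. Control columns repeat identically between the tables of a compartment, which gave 24 libraries in 8 groups, and 0 columns were left unmapped. Column names give a group and no pairing of libraries.

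Tests used edgeR 4.0.16 (quasi-likelihood, robust, after filterByExpr and TMM) on the 6 libraries compared, with Benjamini-Hochberg adjustment over all genes tested. TGF-β was set against IL-10 in a fit of the 12 cell libraries, and cytokine effects were compared between compartments as an interaction in the 12 libraries concerned. The procedure was also run on simulated counts with a fixed spread in each compartment. Those counts do not copy the uneven detection in EVs, and no result here is read from them. A call means an adjusted p under 0.05. Each SE was derived as the absolute log2 fold change divided by the square root of the F statistic of the edgeR test. Exon lengths and overlaps came from GENCODE M21 by symbol, and gene order and promoters from RefSeq. The lists of pathway genes and markers, like the 5 members, were chosen with earlier results of these data known. The text names every member, up to 3 genes of each pathway list with the lowest adjusted p in cells and up to 2 in EVs, and the nearest profiles (5 for F13a1, 3 for the others, among genes with at least 1 CPM in a cell group). Some genes that this rule names are not reported here. Other named genes are marked as such, or stand beside a result as markers or neighbours. Alternatives were RLE scaling, DESeq2 1.42.0, no filter, a mean of at least 50 counts, all 12 libraries of a compartment, EVs against cells scaled by library totals, and each library left out in turn. Scripts ran in R 4.3.3 with limma 3.58.1 and in Python 3.11.15 with matplotlib 3.10.9, pandas 2.3.3, scipy 1.17.1 and numpy 2.4.6.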

Additional observations from a re-analysis of the deposited data

How the results depend on the processing

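In cells, the counts of called genes moved by less than 1.5 times under every alternative run, and the members' calls held except F13a1 after IL-10 with all 12 libraries and Plaur between TGF-β and IL-10 in 3 of the leave-one-out fits. In EVs the counts depended on the tool and on single libraries, and the cause was not tested. For LPS EVs, 1732 calls became 0 with a mean of at least 50 counts and 0 with all 12 libraries, and lay between 0 and 2599 when libraries were left out. DESeq2 called 46 genes after IL-10 and 78 after TGF-β in EVs, where edgeR called 0 in every leave-one-out fit too. EVs against cells gave 1218, 2026 and 2097 calls for control, IL-10 and TGF-β, DESeq2 gave 2485, 3624 and 3723, and leaving out libraries gave 0 to 4175, 0 to 4422 and 340 to 4071. With a mean of at least 50 counts control EVs against cells had 549. For the interactions, 34 (IL-10) and 37 (TGF-β) became 704 and 786 with DESeq2 and 2 to 272 and 3 to 432 when libraries were left out.

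Directions that turned did so only when 1 library was left out. The log2 ranges were -0.94 to 1.54 for Plaur and -0.63 to 8.61 for Plau in LPS EVs, -2.34 to 0.47 for F10 and -1.67 to 0.85 for Plaur in IL-10 EVs, and -3.22 to 0.52 for Plaur in TGF-β EVs. For the IL-10 interaction they were -1.77 to 1.01 (F10), -11.92 to 8.15 (Plau) and -0.97 to 1.53 (Plaur). For the TGF-β interaction they were -2.30 to 0.21 (F13a1), -1.81 to 1.04 (F10), -0.23 to 10.92 (Plau) and -2.40 to 1.42 (Plaur). Thbs1 between TGF-β and IL-10 cells ranged from -0.39 to 4.53 on 8 and 7 counts, in a fit it entered only through its LPS counts. No paired analysis was possible because the columns carry no replicate numbers that tie libraries across groups. EV depth and the counts of cell-silent genes in LPS EVs limit what can be said of F10, Plau and Thbs1 there. Cell-silent genes were listed only through EV counts, so their medians are a point of comparison and no floor.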
